A study of Mus musculus with 8 samples.

Results

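The 51 genes described here encode the machinery that copies the genome: the factors that license replication origins, the replicative helicase, the factors that fire it, the polymerases and primase, the sliding clamp and its loader, the proteins that handle single strands and join Okazaki fragments, and the mediators that protect the fork. They were chosen by symbol from textbook knowledge of DNA replication, with earlier results of these data known. They were looked up through their mouse Ensembl identifiers in a deposited table of 15681 genes. All 51 were in the table and all 51 were among the 12489 genes that passed the filter on low values, which asked for at least 1 RPM (reads-per-million of the effective library size) in at least 2 libraries. The fewest estimated reads of any of them in any library was 233, for Gins1, so none was near the limit of detection.

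The samples were 8 RNA-seq libraries of splenic B lymphocytes sorted from mice that were 8 to 10 weeks old, in 4 groups of 2 libraries. The cells of every group were cultured with lipopolysaccharide (LPS, a bacterial cell wall component that activates B cells) at 20 μg/ml and interleukin 4 (IL-4, a cytokine that promotes class switching) at 20 ng/ml and were harvested after 72 h. The groups were a control, labelled heterozygous with no allele named, a knock-out of Myc (Myc_KO), a knock-out of Max (Max_KO) and a double knock-out of both (double_KO). The driver of the deletions, the floxed or null form of the alleles and whether each library came from 1 mouse were not stated in the labels or the table, so the p-values cover no more than the spread between libraries, which may be technical. Myc needs Max as its partner to bind DNA and activate transcription, and the design asks how the loss of each alone compares with the loss of both.

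In a dividing cell, the origin recognition complex together with Cdc6 and Cdt1 loads the Mcm2-7 ring onto DNA in G1. In S phase, kinases and firing factors add Cdc45 and the GINS complex to each ring, which turns it into the active helicase, and polymerase alpha-primase, polymerase delta and polymerase epsilon then copy the strands while the ring-shaped clamp Pcna holds the polymerases on the template. Many of these genes are known E2F targets and are transcribed at the passage from G1 to S, and several, the Mcm genes among them, are commonly listed as targets of Myc. Resting B cells hold little of this machinery and build it when they are activated.

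The windows around the transcription starts give the sequence context of the members. RefSeq promoter windows of GRCm38.p6, each of 300 bases with 250 before the start and 50 from it, were found for 41 of the 51 genes, in 50 windows, since some genes have more than 1. The letters CACGTG, the E-box that Myc and Max dimers bind, stood in 7 of the 50 windows (14%), against 7.15% of all 32851 windows. At least 1 of the E2F-type strings TTTCGCGC, TTTGGCGC and TTTCCCGC, searched on both strands, stood in 16 of the 50 (32%), against 1.84% of all windows. CCAAT stood in 52% of the members' windows against 37.4% of all, and TTTGAA, a core of the cell-cycle homology region, in 18% against 17.9%. In 2 windows matches to CACGTG or the E2F-type strings overlapped, and overlaps of CCAAT and TTTGAA were not counted. The windows below are shown because they belong to the member that rose most (Pola1), to the one that fell most (Pole2), to one with overlapping E2F-type strings (Mcm5) and to one that rose and holds an E-box (Rfc1). They are written 5′ to 3′ along the gene, with matches to CACGTG and the E2F-type strings in capitals. In Pola1 and Pole2 the capitals are TTTGGCGC read on the other strand. In Mcm5 they join TTTCGCGC with TTTGGCGC on the other strand, and in Rfc1 they are CACGTG. The Pola1 window is chrX:93632106-93632405 on the minus strand, that of Pole2 is chr12:69228141-69228440 on the minus strand, that of Mcm5 is chr8:75109259-75109558 on the plus strand and that of Rfc1 is chr5:65335590-65335889 on the minus strand.
Pola1: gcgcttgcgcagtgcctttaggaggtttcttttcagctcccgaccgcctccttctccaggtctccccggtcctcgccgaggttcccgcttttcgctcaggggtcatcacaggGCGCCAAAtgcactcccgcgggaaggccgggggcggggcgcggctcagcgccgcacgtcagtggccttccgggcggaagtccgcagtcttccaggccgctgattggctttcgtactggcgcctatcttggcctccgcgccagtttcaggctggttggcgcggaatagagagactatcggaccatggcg
Pole2: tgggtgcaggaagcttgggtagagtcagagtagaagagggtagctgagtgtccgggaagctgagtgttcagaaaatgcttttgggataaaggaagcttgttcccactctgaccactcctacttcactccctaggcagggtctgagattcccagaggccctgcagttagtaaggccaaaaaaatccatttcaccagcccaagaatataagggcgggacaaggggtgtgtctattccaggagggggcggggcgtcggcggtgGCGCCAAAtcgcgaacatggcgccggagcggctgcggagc
Mcm5: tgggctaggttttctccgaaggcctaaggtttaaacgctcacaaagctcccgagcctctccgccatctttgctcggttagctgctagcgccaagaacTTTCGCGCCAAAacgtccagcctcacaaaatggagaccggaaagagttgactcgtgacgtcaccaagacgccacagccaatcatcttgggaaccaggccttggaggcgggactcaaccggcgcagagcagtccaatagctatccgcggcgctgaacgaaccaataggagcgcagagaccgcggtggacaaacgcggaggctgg
Rfc1: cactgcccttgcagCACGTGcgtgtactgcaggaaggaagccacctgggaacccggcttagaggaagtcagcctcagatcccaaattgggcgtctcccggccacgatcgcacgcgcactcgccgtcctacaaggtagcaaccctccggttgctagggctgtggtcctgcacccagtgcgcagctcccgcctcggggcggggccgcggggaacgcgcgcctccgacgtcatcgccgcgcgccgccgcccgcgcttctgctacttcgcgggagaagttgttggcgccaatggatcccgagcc

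The same E2F-type string thus stood in the windows of the gene that rose most and of the gene that fell most. By the test described below, 2 of the 7 members with CACGTG (Orc4, Top1, Rfc1, Lig1, Rpa1, Pola2 and Fen1) rose in Myc_KO, 2 in Max_KO and 3 in double_KO, where 24%, 22.3% and 21.8% of all genes tested were called higher, and none fell. Among the 34 members with a window and no CACGTG, the rises were 2, 1 and 6 and the falls 7, 3 and 2. The median log2 changes were 0.10, -0.01 and 0.10 with the string and -0.16, -0.08 and 0.03 without it. Among the 16 members with an E2F-type string, the rises were 1, 1 and 3 and the falls 2, 1 and 1, and among the 25 with a window and no such string the rises were 3, 2 and 6 and the falls 5, 2 and 1. No difference between members with and without a string was tested. A match describes letters in a window and not a bound site.

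The libraries held 14.88 to 17.91 M estimated reads. For 2 libraries the labels disagree: the titles, which match the column names of the deposited table, give Myc_KO replicate 2 and double_KO replicate 1 as used here, while the description and genotype fields give each the other of these genotypes. Groups follow the titles, and results are also given without these 2 libraries, which leaves 1 library in each of Myc_KO and double_KO. The labels do not name the deleted exons, so reads from the rest of each gene may remain. Max stood at 55.0 and 54.5 RPM in the controls, 70.5 and 59.8 in Myc_KO, 16.4 and 15.5 in Max_KO and 28.6 and 31.2 in double_KO, below both controls in the groups that the titles name for its loss and above them in Myc_KO. For Max, the 2 libraries with disagreeing labels lay with the groups of their titles. Double_KO replicate 1 was at 28.6 RPM, below both controls, and Myc_KO replicate 2 was at 59.8, above them. Myc stood at 111 and 116 RPM in the controls, 48.3 and 55.8 in Myc_KO, 192 and 176 in Max_KO and 38.7 and 55.3 in double_KO. Of the B-cell markers, the antigen receptor chains Cd79a and Cd79b stood at 963 to 973 and 1060 to 1080 RPM in the controls against 878 to 1160 and 970 to 1220 RPM with a knock-out, and Ms4a1 at 399 to 448 against 933 to 1380 RPM. Summed plasma-cell markers (6 genes) stood at 1210 to 1260 and 574 to 1100 RPM. The lower sum came with Xbp1, at 680 to 793 and 225 to 431 RPM, and, in Max_KO, Jchain, whereas Sdc1, at 5.94 to 5.98 RPM in the controls, reached 8.23 to 16.5 in Myc_KO and double_KO and Irf4 was above both controls in 5 of the 6 knock-out libraries. Summed T-cell markers (8 genes) stood at 317 to 362 and 186 to 301 RPM, and the lower sum came with Thy1, at 275 to 323 and 71.1 to 228 RPM. Lck was higher in every knock-out library (34.1 to 38.3 and 60.9 to 113 RPM), as were Cd8a (0.996 to 1.33 and 6.91 to 20.9 RPM), Cd3d (0.303 to 0.436 and 0.559 to 2.74 RPM), Cd3e (0 to 0.243 and 0.932 to 3.33 RPM) and Cd3g (0.121 to 0.124 and 0.389 to 1.5 RPM). The 5 NK-cell markers in the table summed to 4.05 to 4.61 RPM in the controls against 5.44 to 20.4 RPM with a knock-out, with Ncr1, Klrk1 and Klrd1 under 1 RPM in all 8. The 4 myeloid markers in the table summed to 2.44 to 3.39 and 8.79 to 29.9 RPM, mostly Adgre1, with Lyz2 and Csf1r under 1 RPM in all 8, and the 1 erythroid marker in the table, Klf1, reached at most 0.56 RPM. The part of these markers in the results was not tested. Library totals divided by the effective sizes were 1.09 and 1.04 in the controls against 0.956 to 0.995 in the other 6 libraries, so the choice of scaling bears on every comparison with the control.

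In the controls, levels per length ran from 179 RPM per kb of merged exon for Pcna to 3.65 for Orc5. Mcm3 followed Pcna at 116 RPM per kb, then Top2a, which untangles replicated DNA, at 94.0, and Mcm5 at 82.4. Within the Mcm2-7 ring, whose 6 subunits stand 1 to 1 in the complex, the control means per length were 24.6 RPM per kb for Mcm2, 116 for Mcm3, 58.4 for Mcm4, 82.4 for Mcm5, 68.1 for Mcm6 and 66.3 for Mcm7. Merged exons include every annotated isoform, so a gene with long minor isoforms has a lower value on this scale. Pola1, the catalytic subunit of polymerase alpha, was among the lowest, at 5.11 RPM per kb, beside 11.2 for Pola2, 23.5 for Prim1 and 6.02 for Prim2 of the same complex. The plot of levels per length shows these subunits together.

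**Figure D1:**
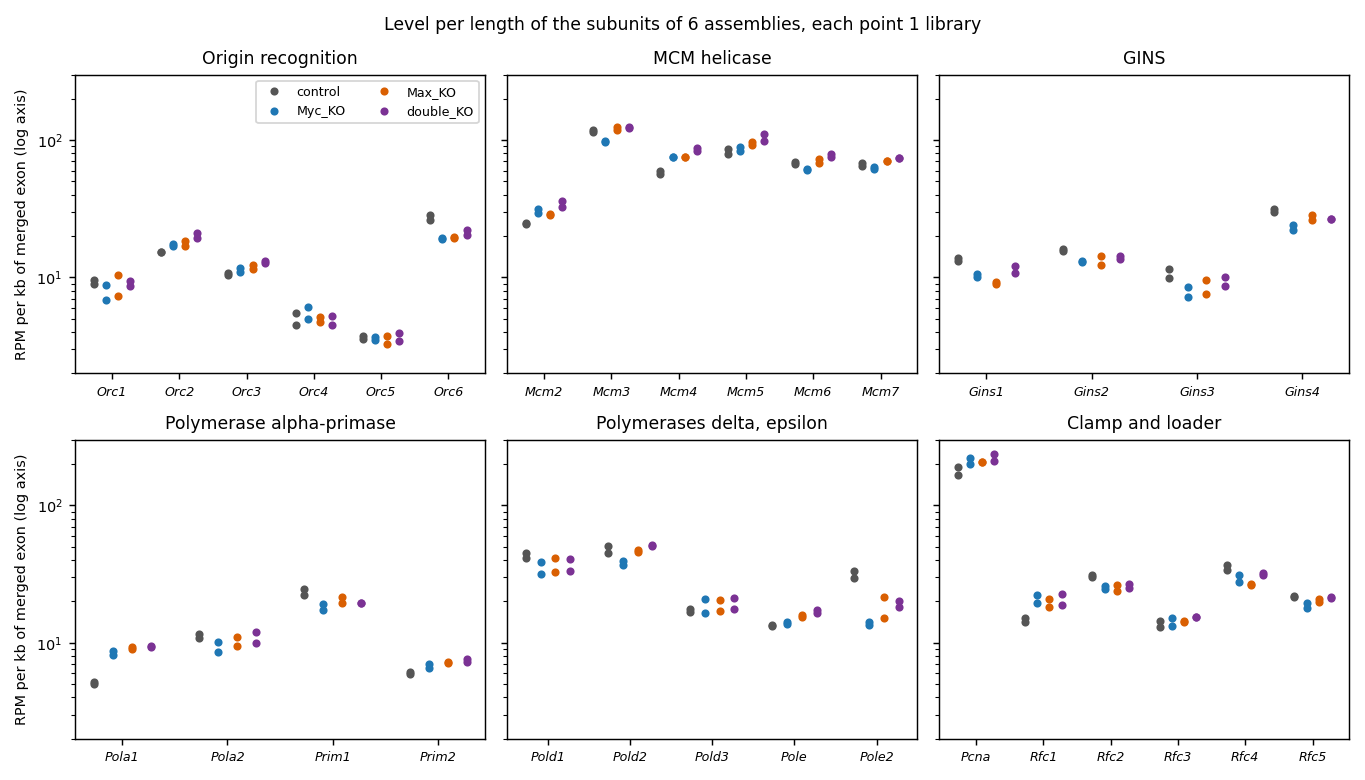
Level per length (RPM per kb of merged exon, log axis) of the subunits of 6 replication assemblies, each point 1 library, coloured by group. Pcna is the highest in the controls at 179 and Orc5 the lowest at 3.65. Pola1 in the controls lies below the 6 knock-out libraries.

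The main question is how the machinery stood in each knock-out group against the control. Of the 51 members, 33 did not pass the test in Myc_KO, 38 in Max_KO and 34 in double_KO, and those that passed it went in both directions, also within 1 complex. A member was called when the adjusted p of limma (Benjamini-Hochberg over all 12489 genes) was under 0.05. In Myc_KO, 5 of the 51 rose and 13 fell, a share of 35.3%, against 45.4% of all genes tested. In Max_KO, the rises were 5 and the falls 8 (25.5%, against 39.7% of all genes tested), and in double_KO 12 rose and 5 fell (33.3%, against 38.6%). The share called among the members was thus below that of all genes in each comparison, and no test of that difference was made. Fewer cells in S phase and less of these RNAs per cell cannot be told apart in bulk samples.

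By direction, 24% of all genes tested were called higher and 21.4% lower in Myc_KO, 22.3% and 17.4% in Max_KO, and 21.8% and 16.8% in double_KO. The median log2 change of the 51 members was -0.17 in Myc_KO, -0.08 in Max_KO and 0.01 in double_KO, beside 0.00, 0.02 and 0.02 over all genes tested. Changes ran from -1.18 to 0.73 in Myc_KO, from -0.79 to 0.84 in Max_KO and from -0.71 to 0.88 in double_KO. More than a 2-fold change was seen in 1 member, Pole2 in Myc_KO, whereas 20.0%, 15.9% and 16.0% of all genes tested passed that size in the respective comparisons. The libraries of the knock-out and control groups did not overlap for 40 of the 51 members in Myc_KO (75.1% of all genes tested), 38 in Max_KO (73.6%) and 36 in double_KO (73.6%).

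These counts moved when single libraries were left out and with the scaling. A fit without a library has fewer samples, and the share of all genes called in it is not given here. A lower count there is thus not shown to be particular to the members. Without control replicate 1, the members called were 8 in Myc_KO, 3 in Max_KO and 6 in double_KO. Without control replicate 2 they were 9, 8 and 7. Leaving out Max_KO replicate 2 left 8 in Max_KO, and leaving out double_KO replicate 1 left 6 in double_KO. With only the 6 libraries whose labels agree, the rises were 5, 4 and 5 and the falls 5, 8 and 1 in Myc_KO, Max_KO and double_KO. With each library scaled to the same total, the rises were 10, 14 and 20 and the falls 5, 6 and 1 in the same order. That scaling raised the median over all genes to 0.15, 0.12 and 0.14 and the share of all calls that were higher from 52.8%, 56.2% and 56.6% to 66.4%, 66.7% and 68.9%. The members' medians became -0.02, 0.02 and 0.13. None of the calls named here took the other sign under that scaling or under quantile normalization.

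The title numbers fall into a 30s and a 40s series, whose meaning the labels do not give. Each knock-out group has 1 library of each, while both controls are in the 30s. Over all genes, the difference between the 30s and the 40s library correlated between Myc_KO and Max_KO (r = 0.363), Myc_KO and double_KO (r = 0.315) and Max_KO and double_KO (r = 0.37), where genes are not independent replicates. It had 1 sign in all 3 knock-out groups for 31 of the 51 members, 21 of them higher in the 30s, and for 47.8% of all genes tested. Pold1 stood at 188 and 154 RPM in Myc_KO, 200.1 and 159.5 in Max_KO and 197 and 163 in double_KO, with the 30s library first. With a term for the series, all calls named here against the control held, and the members called were 25 in Myc_KO (51.5% of all genes), 24 in Max_KO (46.5%) and 20 in double_KO (45.4%).

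Groups taken from the description and genotype fields ended other calls. In Myc_KO these were Mcm3 (log2 change -0.06, adjusted p = 0.744), Gins1 (0.0545), Gins4 (0.113), Mcm10 (-0.15, 0.465), Ticrr (0.112), Prim1 (0.056) and Pold2 (-0.14, 0.545). In Max_KO they were Gmnn (0.055), Pole (0.152) and Rpa1 (0.101). In double_KO they were Orc2 (0.24, 0.147), Orc3 (0.127), Mcm5 (0.13, 0.427), Prim2 (0.19, 0.18), Pole (0.17, 0.279), Pcna (0.20, 0.118) and Rpa1 (0.17, 0.219).

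**Figure D2:**
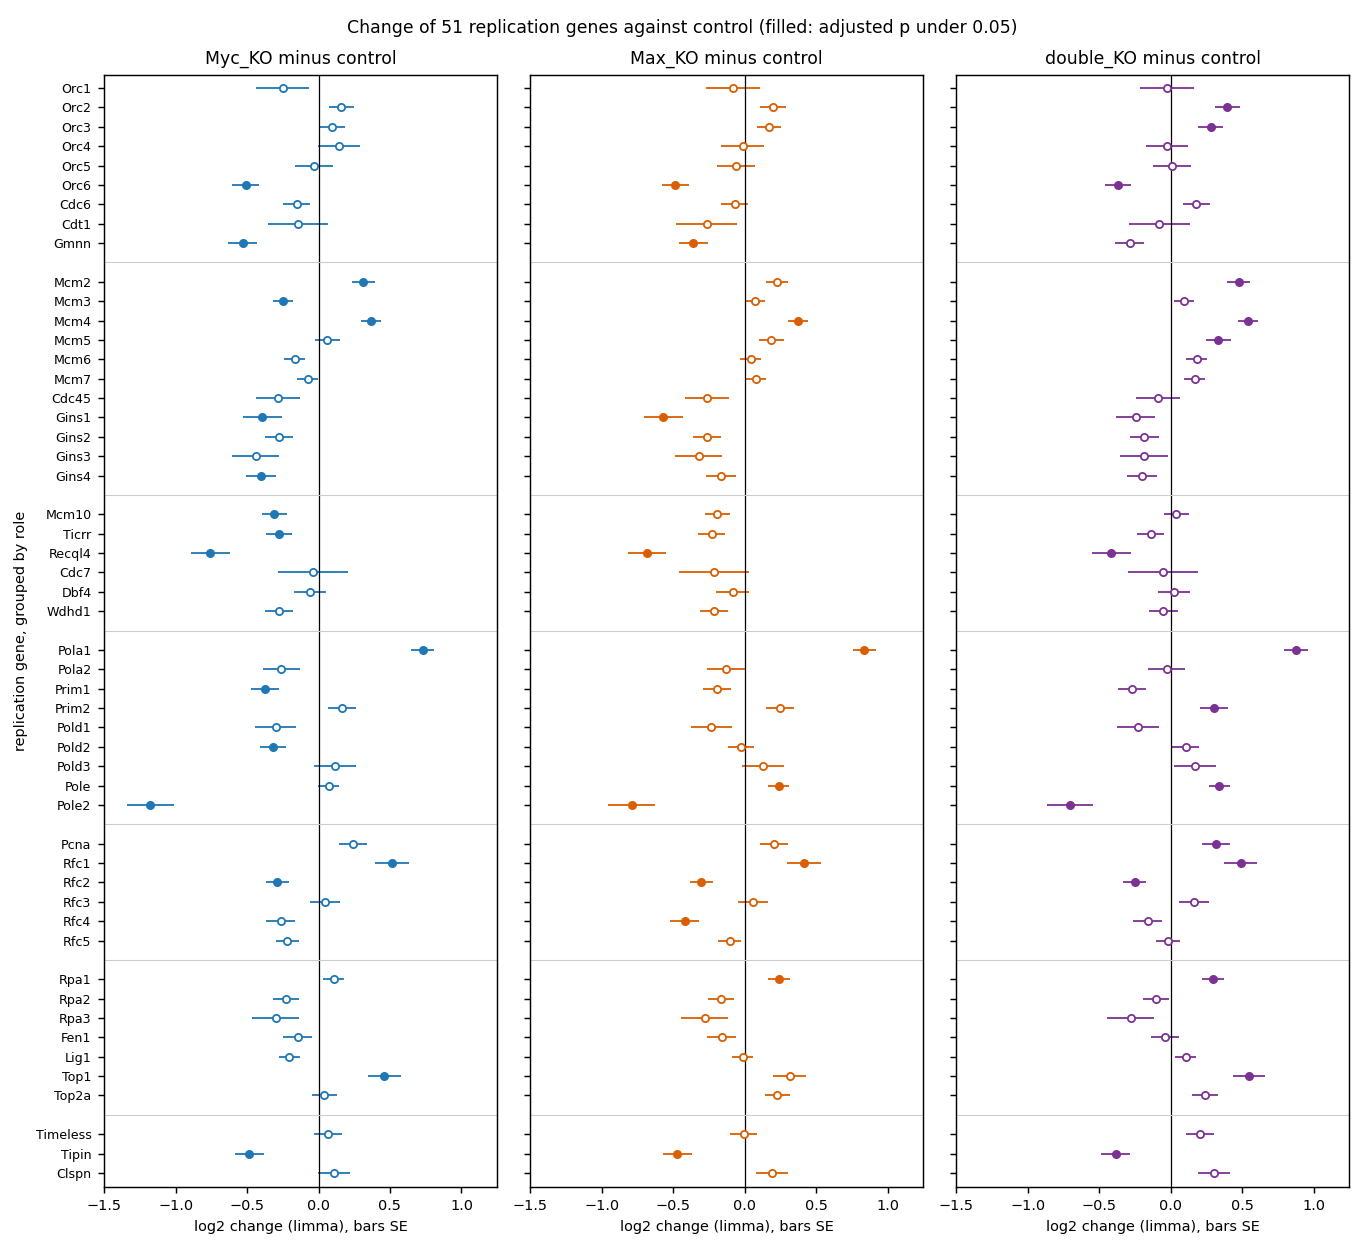
Log2 change of each of the 51 replication genes against control (limma; bars are standard errors, filled points are called at an adjusted p under 0.05), ordered by role and shown for the 3 knock-out groups. Pola1 lies farthest to the right in each panel, at 0.73, 0.84 and 0.88, and Pole2 farthest to the left, at -1.18, -0.79 and -0.71.

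Of the 51 members, 25 were not called in any of the 3 comparisons with the control: Orc1, Orc4, Orc5, Cdc6, Cdt1, Mcm6, Mcm7, Cdc45, Gins2, Gins3, Cdc7, Dbf4, Wdhd1, Pola2, Pold1, Pold3, Rfc3, Rfc5, Rpa2, Rpa3, Fen1, Lig1, Top2a, Timeless and Clspn. Called lower in all 3 were 5 members (Orc6, Recql4, Pole2, Rfc2 and Tipin), and called higher in all 3 were 3 members (Mcm4, Pola1 and Rfc1). The 3 comparisons share their 2 control libraries. A further 6 were called lower in Myc_KO and not called in the other comparisons (Mcm3, Gins4, Mcm10, Ticrr, Prim1 and Pold2), and 5 were called higher in double_KO and not called in the other comparisons (Orc2, Orc3, Mcm5, Prim2 and Pcna). Mcm2 and Top1 were called higher in Myc_KO and double_KO, Pole and Rpa1 higher in Max_KO and double_KO, Gmnn and Gins1 lower in Myc_KO and Max_KO, and Rfc4 lower in Max_KO. These counts sort the members by where they were called and do not show that a change differed between groups.

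Among the 9 genes of origin recognition and licensing, 2 fell in each of Myc_KO and Max_KO, where none rose, and 1 fell and 2 rose in double_KO. Orc6, the smallest subunit of the origin recognition complex, stood at 69.8 and 65.0 RPM in the controls, 46.9 and 47.6 in Myc_KO, 47.9 and 48.3 in Max_KO and 49.96 and 54.5 in double_KO. Both controls were above all 6 knock-out libraries. Orc6 fell by 0.51 on the log2 scale in Myc_KO (SE 0.09, adjusted p = 0.00291), by 0.49 in Max_KO (adjusted p = 0.00456) and by 0.37 in double_KO (adjusted p = 0.0153). The double_KO call was lost without control replicate 1 (adjusted p = 0.111) or double_KO replicate 1 (0.0881), whereas the other calls held without each library in turn.

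Gmnn encodes geminin, which binds Cdt1 and blocks relicensing after S phase begins. It stood at 81.4 and 72.3 RPM in the controls, 51.3 and 54.8 in Myc_KO, 59.2 and 60.5 in Max_KO and 60.02 and 65.7 in double_KO. Its controls again lay above every knock-out library. It fell by 0.53 in Myc_KO (SE 0.10, adjusted p = 0.00332) and by 0.36 in Max_KO (adjusted p = 0.0218), and its log2 change of -0.29 in double_KO missed the threshold at 0.0501 (0.018 with the series term). The Max_KO call was lost without control replicate 1 (0.156), Max_KO replicate 1 (0.0746) or Max_KO replicate 2 (0.0694). The levels of Cdt1, the target of geminin, varied widely within groups, from 61.9 to 78.7 RPM in Max_KO and 66.7 to 94.7 RPM in double_KO, and overlapped the control range of 75.3 to 93.7. In each knock-out group the library of the 30s series was the lower, at 66.1 RPM beside 87.3 in Myc_KO. With the series term Cdt1 was called lower in Myc_KO (-0.35, adjusted p = 0.0333) and Max_KO (-0.48, 0.0112).

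Orc2, a core subunit of the same complex, went the other way. It stood at 59.4 and 59.2 RPM in the controls, 67.7 and 64.9 in Myc_KO, 71.0 and 65.4 in Max_KO and 81.1 and 75.3 in double_KO. The double_KO libraries were the highest of all 8, and the controls the lowest. Orc2 rose by 0.40 in double_KO (SE 0.09, adjusted p = 0.00957), a call lost without control replicate 1 (0.0577), control replicate 2 (0.0548) or double_KO replicate 1 (0.0607). With the series term it was also called higher in Myc_KO (0.0461) and Max_KO (0.0262). Orc3 rose by 0.28 in double_KO (adjusted p = 0.0333), a call that did not hold without either control (0.163 and 0.0922) or either double_KO library (0.0831 and 0.134). Orc1, Orc4 and Orc5 and the loader Cdc6 had log2 changes between -0.25 and 0.18 and were not called.

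In the Mcm2-7 ring, Mcm4 was called higher in all 3 comparisons, Mcm2 in Myc_KO and double_KO and Mcm5 in double_KO, while Mcm3 was called lower in Myc_KO. In GINS, the accessory complex of the helicase, Gins1 was called lower in Myc_KO and Max_KO and Gins4 in Myc_KO. No difference between these subcomplexes was tested. Over the 11 genes, 2 were called higher and 3 lower in Myc_KO, 1 and 1 in Max_KO, and 3 and 0 in double_KO. Mcm4 stood at 215 and 205 RPM in the controls, 271 and 269 in Myc_KO, 272 and 270.4 in Max_KO and 312 and 298 in double_KO. All 6 knock-out libraries were above both controls, and the double_KO libraries were the highest. Mcm4 rose by 0.37 in Myc_KO (SE 0.07, adjusted p = 0.0038), 0.37 in Max_KO (adjusted p = 0.0044) and 0.54 in double_KO (adjusted p = 0.000862). These calls held in all 24 alternative fits. With each library scaled to the same total, all 6 ring subunits were called higher in double_KO and Mcm3 was no longer called lower in Myc_KO, whereas quantile normalization also called Mcm6 lower in Myc_KO.

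Mcm2, which also carries histones at the fork, stood at 172 and 170.3 RPM in the controls, 220.0 and 206 in Myc_KO, 201 and 199.7 in Max_KO and 249 and 227 in double_KO. The double_KO libraries were again the highest and the controls the lowest, with no overlap between them and the other groups. It rose by 0.31 in Myc_KO (SE 0.08, adjusted p = 0.0128) and by 0.47 in double_KO (adjusted p = 0.00251), while its log2 change of 0.23 in Max_KO missed the threshold at 0.0503 (0.0144 with the series term). The double_KO call held in all 24 alternative fits, and the Myc_KO call was lost without control replicate 1 (0.0625), control replicate 2 (0.0651) or Myc_KO replicate 1 (0.0659).

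Mcm3, the member of the ring with the highest level per length, stood at 443 and 428 RPM in the controls, 372 and 361 in Myc_KO, 469.9 and 446 in Max_KO and 467 and 461 in double_KO. The Myc_KO libraries were the lowest of all 8, and the other knock-out libraries were all above both controls. Mcm3 fell by 0.25 in Myc_KO (SE 0.07, adjusted p = 0.0216), a call lost without control replicate 1 (0.115), control replicate 2 (0.0598) or Myc_KO replicate 2 (0.0842). With groups from the description and genotype fields its change in Myc_KO was -0.06 (adjusted p = 0.744). In Max_KO and double_KO its log2 changes were 0.07 and 0.09, with adjusted p = 0.453 and 0.342.

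Mcm5 rose by 0.33 in double_KO (SE 0.09, adjusted p = 0.0188), from 343 and 316 RPM in the controls to 440.2 and 390.3, a call lost without control replicate 2 (0.116) or double_KO replicate 1 (0.119). Mcm6 and Mcm7 were not called: their log2 changes were -0.17 and -0.08 in Myc_KO, 0.04 and 0.08 in Max_KO and 0.18 and 0.17 in double_KO. With the groups of the titles, the double_KO mean was the highest of the knock-out groups for each of the 6 ring subunits. Cdc45, which joins the ring with GINS, had log2 changes of -0.28, -0.27 and -0.09 and was not called.

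Gins1, the member with the lowest counts, stood at 19.98 and 21.1 RPM in the controls, 15.2 and 16.0 in Myc_KO, 14.1 and 13.6 in Max_KO and 16.3 and 18.5 in double_KO. Both controls were above the knock-out libraries, and Max_KO was the lowest group. Gins1 fell by 0.57 in Max_KO (SE 0.14, adjusted p = 0.0121) and by 0.39 in Myc_KO (adjusted p = 0.0442). Without any 1 of the 8 libraries the Myc_KO call was lost, at adjusted p from 0.0524 without double_KO replicate 1 to 0.176 without control replicate 2. The Max_KO call was lost without control replicate 1 (0.0545), control replicate 2 (0.0751) or Max_KO replicate 2 (0.0578). Gins4 fell by 0.41 in Myc_KO (adjusted p = 0.0143), a call lost without control replicate 1 (0.0924), control replicate 2 (0.0511) or Myc_KO replicate 2 (0.0735). All 4 GINS genes had negative log2 changes in all 3 comparisons, from -0.17 to -0.57, also where they were not called, and Gins2 and Gins3 were not called in any. The signs were the same under each other scaling tried, but the Myc_KO calls of Gins1 and Gins4 were lost with each library scaled to the same total.

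Of the 6 firing factors and kinase genes, 3 fell in Myc_KO and 1 in each of the other groups, and none rose. Recql4, a RecQ helicase that takes part in the start of replication and is mutated in Rothmund-Thomson syndrome in humans, stood at 42.6 and 38.2 RPM in the controls, 21.8 and 26.1 in Myc_KO, 26.5 and 23.9 in Max_KO and 28.8 and 31.7 in double_KO. All 6 knock-out libraries were below both controls, and double_KO was the nearest to them. Recql4 fell by 0.76 in Myc_KO (SE 0.13, adjusted p = 0.00257), by 0.68 in Max_KO (adjusted p = 0.00522) and by 0.42 in double_KO (adjusted p = 0.0397). The Myc_KO call held in all 24 alternative fits. The Max_KO call was lost without control replicate 1 (0.0511), and the double_KO call without either control (0.213 without replicate 1 and 0.083 without replicate 2) or either double_KO library (0.169 and 0.074).

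Mcm10, which helps the helicase to begin unwinding and brings polymerase alpha to it, stood at 79.1 and 81.8 RPM in the controls, 64.6 and 65.2 in Myc_KO, 74.5 and 66.8 in Max_KO and 81.6 and 83.8 in double_KO. The Myc_KO libraries were the lowest, and double_KO lay at the level of the controls. It fell by 0.31 in Myc_KO (SE 0.09, adjusted p = 0.0211), with log2 changes of -0.19 in Max_KO and 0.04 in double_KO that were not called. The Myc_KO call was lost without control replicate 1 (0.0771), control replicate 2 (0.107), Myc_KO replicate 1 (0.0705) or Myc_KO replicate 2 (0.0638), and its change was -0.15 (adjusted p = 0.465) with groups from the description and genotype fields.

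Ticrr encodes treslin, which brings Cdc45 to origins together with Topbp1. Its levels were 77.2 and 80.2 RPM in the controls, 66.6 and 63.1 in Myc_KO, 65.6 and 68.4 in Max_KO and 67.3 and 75.6 in double_KO. Both controls were above every knock-out library. It fell by 0.28 in Myc_KO (SE 0.09, adjusted p = 0.0392), a call lost without control replicate 1 (0.111), control replicate 2 (0.164), Myc_KO replicate 1 (0.0688) or Myc_KO replicate 2 (0.147), and with the series term it was also called lower in Max_KO (0.0426). Cdc7 and Dbf4, the kinase that fires licensed origins and its activator, were not called, with log2 changes between -0.21 and 0.02, and the double_KO libraries lay far apart for Cdc7, at 72.4 and 42.7 RPM. Wdhd1, which ties polymerase alpha to the helicase, had log2 changes of -0.28, -0.21 and -0.05 and was not called.

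The 9 polymerase and primase genes held both extremes of the 51. In Myc_KO 1 of them rose and 3 fell, in Max_KO 2 rose and 1 fell, and in double_KO 3 rose and 1 fell. Pola1 stood at 44.2 and 45.8 RPM in the controls, 76.8 and 72.3 in Myc_KO, 82.0 and 79.1 in Max_KO and 83.2 and 82.0 in double_KO. The 6 knock-out libraries lay together at 72.3 to 83.2 RPM, well above the controls. Pola1 rose 1.66-fold in Myc_KO (log2 change 0.73, SE 0.08, adjusted p = 0.000323), 1.79-fold in Max_KO (0.84, adjusted p = 0.000293) and 1.83-fold in double_KO (0.88, adjusted p = 0.000262). Each call held in all 24 alternative fits. The gene (ENSMUSG00000006678) is on the X chromosome.

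Its partners in the same complex had smaller changes in both directions. Pola2, the accessory subunit, was not called, with log2 changes of -0.26, -0.13 and -0.03. Prim1, the catalytic primase subunit, fell by 0.37 in Myc_KO (SE 0.10, adjusted p = 0.0157), from 95.2 and 86.3 RPM in the controls to 73.8 and 66.4, a call lost without control replicate 1 (0.116) or Myc_KO replicate 2 (0.0844). Prim2, the large primase subunit, stood at 34.9 and 36.6 RPM in the controls, 41.3 and 38.9 in Myc_KO, 43 and 41.95 in Max_KO and 45.4 and 42.7 in double_KO, with all knock-out libraries above both controls. Its log2 changes of 0.17 in Myc_KO and 0.25 in Max_KO missed the threshold. Both were called with each library scaled to the same total, and that in Max_KO also with the series term (0.0284). It rose by 0.30 in double_KO (adjusted p = 0.0404), which no longer passed when any library of the control, Max_KO or double_KO group was left out (0.0544 to 0.183).

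Pole2, the second subunit of polymerase epsilon, stood at 95.7 and 84.7 RPM in the controls, 41.0 and 38.6 in Myc_KO, 62.0 and 43.6 in Max_KO and 58.4 and 52.2 in double_KO. Both controls were above all 6 knock-out libraries, and the Max_KO libraries lay far apart. Pole2 fell by 1.18 in Myc_KO (2.26-fold, SE 0.16, adjusted p = 0.000776), by 0.79 in Max_KO (1.73-fold, adjusted p = 0.00616) and by 0.71 in double_KO (1.63-fold, adjusted p = 0.0103). The Myc_KO call held in all 24 alternative fits, the Max_KO call was lost without control replicate 1 (0.0571), and the double_KO call without control replicate 1 (0.0834) or double_KO replicate 2 (0.0589). The gene (ENSMUSG00000020974) is on chromosome 12.

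Pole, the catalytic subunit of the same enzyme and the main leading-strand polymerase, moved the other way. It stood at 147 and 150.1 RPM in the controls, 159 and 153 in Myc_KO, 172 and 178 in Max_KO and 192 and 183 in double_KO. All knock-out libraries were above both controls, with Myc_KO closest to them. Pole rose by 0.24 in Max_KO (SE 0.07, adjusted p = 0.0334) and by 0.34 in double_KO (adjusted p = 0.0083), and its log2 change of 0.07 in Myc_KO was not called. The Max_KO call was lost without either control (0.152 and 0.101) or either Max_KO library (0.0647 and 0.148), and the double_KO call without control replicate 1 (0.0595) or double_KO replicate 1 (0.0534). In polymerase delta, which makes most of the lagging strand, Pold2 fell by 0.32 in Myc_KO (SE 0.09, adjusted p = 0.0229), a call lost without control replicate 1 (0.163) or Myc_KO replicate 1 (0.107). Pold1, its catalytic subunit, and Pold3 were not called, with log2 changes from -0.30 to -0.23 and from 0.12 to 0.17.

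In the group of the clamp and its loader, 1 of 6 rose in Myc_KO, 1 in Max_KO and 2 in double_KO, whereas 1, 2 and 1 fell. Rfc1, the large subunit of the loader, stood at 91.1 and 85.5 RPM in the controls, 134 and 118 in Myc_KO, 126 and 110.4 in Max_KO and 136 and 113 in double_KO. All knock-out libraries were above both controls. Rfc1 rose by 0.51 in Myc_KO (SE 0.12, adjusted p = 0.00868), 0.42 in Max_KO (adjusted p = 0.0239) and 0.49 in double_KO (adjusted p = 0.0128). The Myc_KO call was lost without control replicate 2 (0.0602) or Myc_KO replicate 1 (0.051). The Max_KO call was lost without control replicate 1 (0.0785), control replicate 2 (0.127) or Max_KO replicate 1 (0.111), and the double_KO call without control replicate 1 (0.0525), control replicate 2 (0.0819) or double_KO replicate 1 (0.0802).

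Rfc2, a small subunit of the loader, stood at 191 and 198 RPM in the controls, 156 and 162 in Myc_KO, 165 and 150.3 in Max_KO and 168 and 159 in double_KO. Its controls were above all knock-out libraries, which lay close together. Rfc2 fell by 0.29 in Myc_KO (SE 0.08, adjusted p = 0.0195), 0.30 in Max_KO (adjusted p = 0.0182) and 0.25 in double_KO (adjusted p = 0.0376). Each call was lost without either control library, at adjusted p of 0.0709 and 0.101 in Myc_KO, 0.071 and 0.0988 in Max_KO and 0.112 and 0.161 in double_KO. Leaving out Myc_KO replicate 1 (0.0793), Max_KO replicate 2 (0.112), double_KO replicate 1 (0.0746) or double_KO replicate 2 (0.167) also ended the call of the group concerned.

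Rfc4, another small subunit, stood at 56.4 and 52.1 RPM in the controls, 47.6 and 42.7 in Myc_KO, 40.7 and 40.3 in Max_KO and 49.4 and 47.5 in double_KO. The controls were the highest and the Max_KO libraries the lowest. Rfc4 fell by 0.42 in Max_KO (SE 0.10, adjusted p = 0.012), a call lost without control replicate 1 (0.092) or Max_KO replicate 2 (0.0537). Its log2 changes of -0.27 in Myc_KO and -0.16 in double_KO were not called. Rfc3 and Rfc5 were not called, with log2 changes from 0.04 to 0.17 and from -0.22 to -0.02. The clamp itself, Pcna, stood at 459.9 and 401 RPM in the controls, 531 and 484 in Myc_KO, 495 and 493 in Max_KO and 564 and 505 in double_KO. Every knock-out library was above both controls, and Pcna rose by 0.31 in double_KO (SE 0.10, adjusted p = 0.0339), a call lost without control replicate 2 (0.2) or double_KO replicate 1 (0.181). Its log2 changes of 0.24 in Myc_KO and 0.20 in Max_KO missed the threshold. Both were called with each library scaled to the same total. That in Myc_KO was also called with the series term (0.0296) and with groups from the description and genotype fields.

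Of the 7 genes of single-strand binding, Okazaki fragment maturation and topoisomerases, 1 rose in Myc_KO, 1 in Max_KO and 2 in double_KO, and none fell. Top1, which relaxes the supercoils ahead of the fork and acts in transcription too, stood at 153 and 139.7 RPM in the controls, 222 and 182 in Myc_KO, 194 and 170.2 in Max_KO and 210.0 and 217 in double_KO. All knock-out libraries were above both controls, with overlap among the knock-out groups. Top1 rose by 0.46 in Myc_KO (SE 0.11, adjusted p = 0.0116) and by 0.55 in double_KO (adjusted p = 0.00673), and its log2 change of 0.31 in Max_KO missed the threshold at 0.0577 (0.0137 with the series term). The Myc_KO call was lost without control replicate 2 (0.0803) or Myc_KO replicate 1 (0.0641), and the double_KO call without control replicate 2 (0.0548).

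Rpa1, the large subunit of the single-strand binding protein RPA, stood at 192 and 182 RPM in the controls, 202 and 199.5 in Myc_KO, 228 and 215 in Max_KO and 237 and 222 in double_KO. The order of groups was control, Myc_KO, Max_KO and double_KO. Rpa1 rose by 0.24 in Max_KO (SE 0.08, adjusted p = 0.036) and 0.30 in double_KO (adjusted p = 0.0167). The Max_KO call was lost without either control (0.0883 and 0.175) or either Max_KO library (0.148 and 0.0674), and the double_KO call without control replicate 1 (0.0545), control replicate 2 (0.101) or double_KO replicate 1 (0.0973). The smaller subunits Rpa2 and Rpa3 had log2 changes of -0.30 to -0.10, the flap nuclease Fen1 of -0.16 to -0.04, the ligase Lig1 of -0.20 to 0.10 and Top2a of 0.04 to 0.24, and none of these was called.

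Of the 3 fork genes, Tipin was called lower in each comparison. It encodes the partner of Timeless in the complex that holds helicase and polymerase together, and stood at 116 and 99.9 RPM in the controls, 75.7 and 78.1 in Myc_KO, 74.2 and 81.4 in Max_KO and 79.2 and 85.8 in double_KO. Both controls were above all 6 knock-out libraries. Tipin fell by 0.48 in Myc_KO (SE 0.10, adjusted p = 0.00585), 0.47 in Max_KO (adjusted p = 0.00814) and 0.38 in double_KO (adjusted p = 0.019). Without control replicate 1, the higher of the controls, the adjusted p was 0.0559, 0.0719 and 0.144, and the double_KO call was also lost without double_KO replicate 1 (0.1). Timeless itself was not called, with log2 changes of 0.06, -0.01 and 0.20, nor was Clspn (claspin, which passes the checkpoint signal to Chek1), at 0.11, 0.19 and 0.30.

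**Figure D3:**
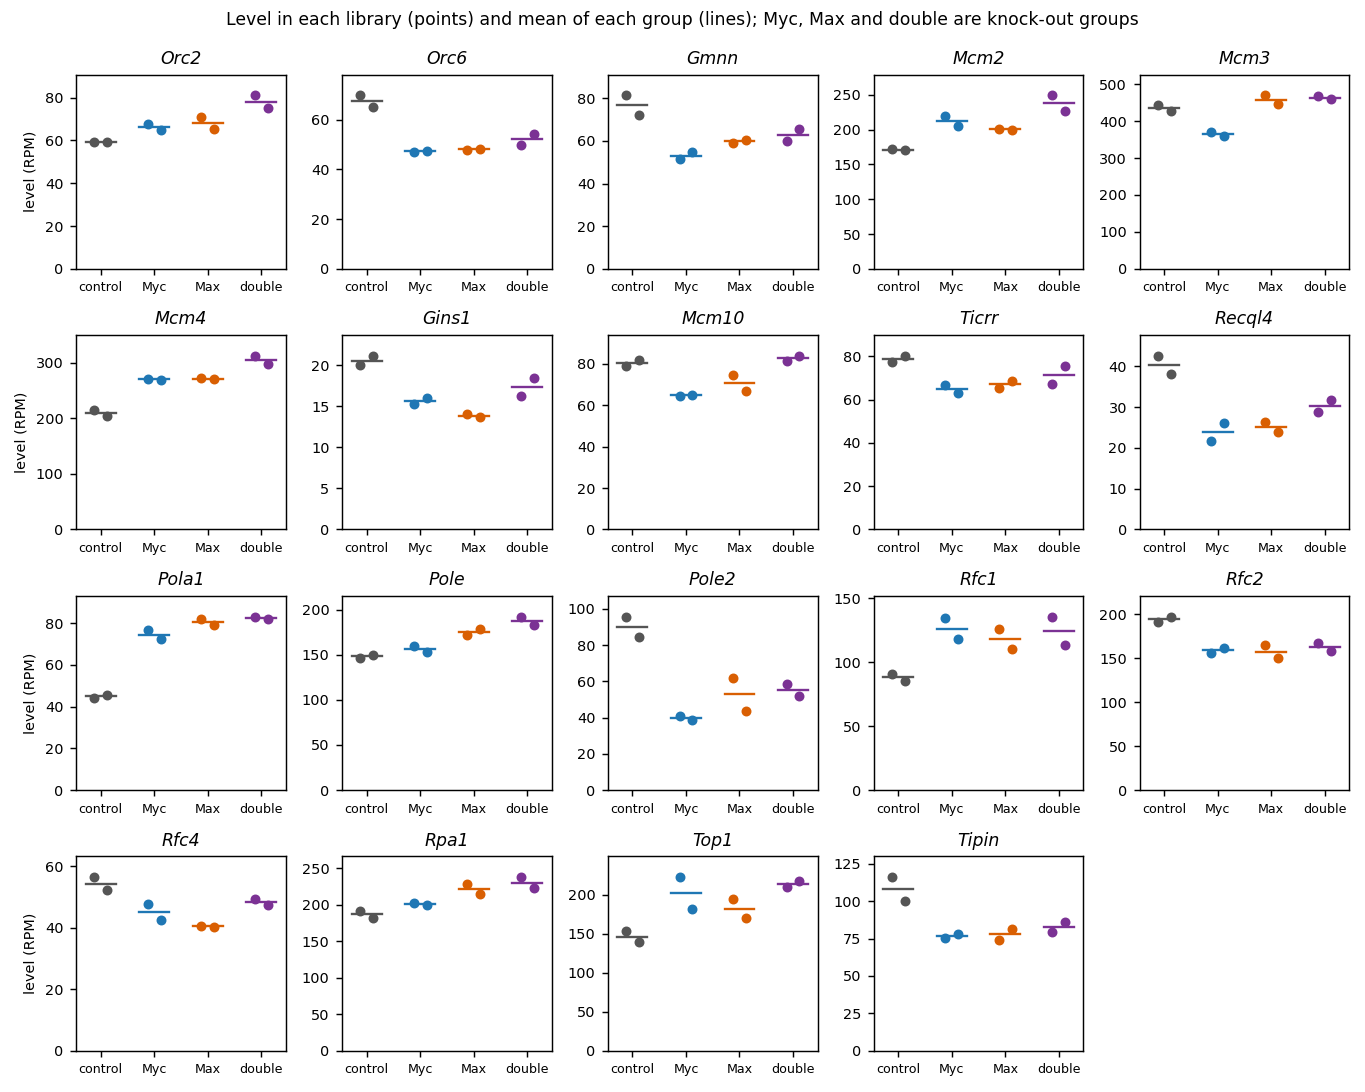
Level (RPM) of 19 replication genes in each of the 8 libraries (points) with the mean of each group (lines), each axis starting at 0. Pola1 shows the 6 knock-out libraries at 72.3 to 83.2 RPM above controls of 44.2 and 45.8, and Pole2 shows controls of 95.7 and 84.7 RPM above knock-out libraries of 38.6 to 62.0.

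Subunits of 1 complex thus differed in direction, and the difference between them can be read within each library, where no scaling of libraries enters. The pairs were chosen after their values were seen and are given as a description with no test. The log2 level per length of Pola1 minus that of Pola2 stood at -1.20 and -1.06 in the controls, against -0.35 to -0.06 in the 6 knock-out libraries. Pola1 minus Prim1 was -2.29 and -2.10 without a knock-out and -1.21 to -1.03 with one. For polymerase epsilon, Pole minus Pole2 was -1.34 and -1.13 in the controls, against -0.49 to 0.08 in the knock-outs. In these pairs the gap in level between the subunits was smaller in every knock-out library than in either control. The same held for Mcm4 minus Mcm3, at -0.98 and -1.0 against -0.72 to -0.36, for Mcm2 minus Mcm3, at -2.25 and -2.22 against -2.11 to -1.65, and for Rfc1 minus Rfc2, at -1.0 and -1.14 against -0.42 to -0.15. Orc2 minus Orc6 went from -0.88 and -0.78 to a range of -0.21 to 0.05.

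**Figure D4:**
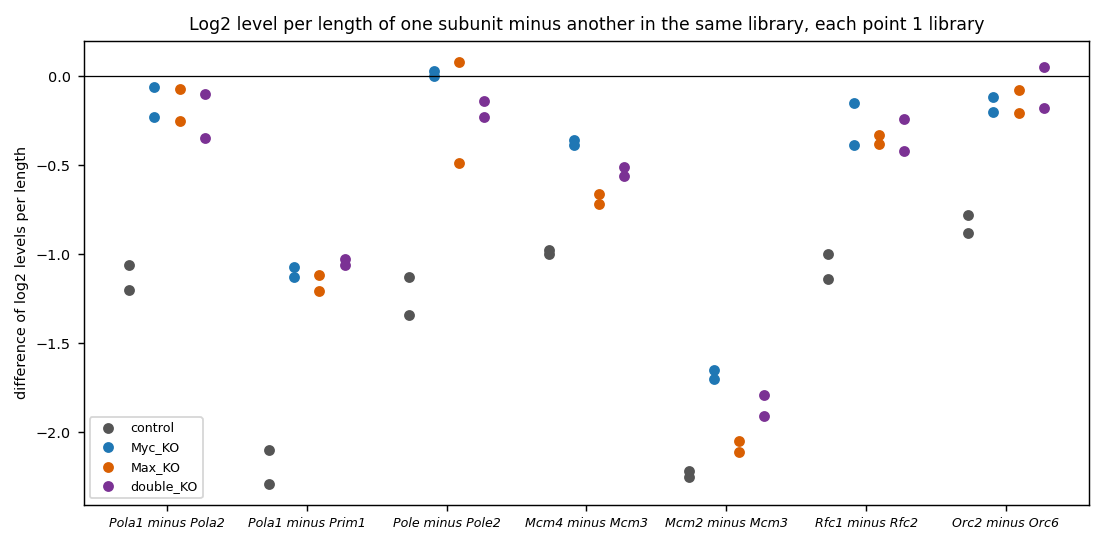
Log2 level per length of 1 subunit minus that of another in the same library, each point 1 library, for 7 pairs of replication genes chosen after their values were seen. The controls lie below the knock-out libraries in each pair, for Pola1 minus Pola2 at -1.20 and -1.06 against -0.35 to -0.06.

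The knock-out groups were also compared with each other, to ask whether loss of both proteins left other levels than loss of 1. Differences were smaller than those from the control. Between double_KO and Myc_KO no member was called, against 0.456% of all genes tested, with 16 of the 51 at an unadjusted p under 0.05, all of them higher in double_KO, against 12.8% of all genes. Between double_KO and Max_KO none was called, against 0.04% of all genes, with 6 at an unadjusted p under 0.05, against 6.05% of all genes. With the series term, 3 members (Mcm3, Mcm6 and Pold2) were called higher in double_KO than in Myc_KO, against 2.33% of all genes, and none between double_KO and Max_KO. The libraries of double_KO and Myc_KO did not overlap for 34 members (41.4% of all genes tested), those of double_KO and Max_KO for 25 (31.6%) and those of Max_KO and Myc_KO for 21 (46.2%). The means were higher in double_KO than in Myc_KO for 48 of the 51 members, with a median log2 difference of 0.16, and higher than in Max_KO for 47, with a median of 0.10, beside medians of 0.01 and 0.00 over all genes. This direction depended on the labels of the 2 disputed libraries: with the groups of the description and genotype fields, 19 of 51 were higher in double_KO than in Myc_KO and 27 higher than in Max_KO. Those groups put the library with Max at 28.6 RPM in Myc_KO and that with Max at 59.8 RPM in double_KO. With the 6 libraries whose labels agree, 38 were higher in double_KO than in Myc_KO and 40 higher than in Max_KO. These leave 1 Myc_KO library, of the 30s title series, and 1 double_KO library, of the 40s. Between those 2 groups, genotype and series cannot be told apart. Max RNA itself stood at 28.6 and 31.2 RPM in double_KO against 16.4 and 15.5 in Max_KO. Its log2 difference of 0.91 was not called by limma (adjusted p = 0.0968), and its part in these differences was not tested.

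Between Max_KO and Myc_KO, Mcm3 was called, 1 of 51 members against 4.12% of all genes tested (2.43% higher in Max_KO). It was higher by 0.32 in Max_KO (SE 0.07, adjusted p = 0.0469), at 469.9 and 446 RPM against 372 and 361 in Myc_KO, with no overlap. Omitting any of the 8 libraries ended the call, at adjusted p from 0.0742 without Max_KO replicate 2 to 0.237 without Max_KO replicate 1.

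The interaction asks whether the change in double_KO equals the sum of the changes in Myc_KO and Max_KO on the log2 scale. It was called for 10 of the 51 members, 9 above 0 and 1 below, against 27.3% of all genes tested (12.3% above and 15% below), and its median was 0.29 over the members and 0.00 over all genes. The 9 above 0 were Orc6, Gmnn, Gins1, Mcm10, Recql4, Pold2, Pole2, Rfc4 and Tipin. For each of them the changes in Myc_KO and Max_KO were both negative, and the double_KO level was above that which their sum gives. The same 2 control libraries enter those changes and the interaction with opposite sign. The negative changes and the positive interaction are thus not independent of each other. With the groups of the titles the largest was Pole2, with an interaction of 1.26 (SE 0.23, adjusted p = 0.0061), where the sum of -1.18 and -0.79 stands against a change of -0.71. Recql4 followed at 1.02 (SE 0.19, adjusted p = 0.00669). Pola1 was the 1 below 0, at -0.69 (SE 0.12, adjusted p = 0.00493): its rise of 0.88 in double_KO was close to that in either single knock-out. The calls of Recql4, Pola1 and Pole2 held without each library in turn, whereas the other 7 were lost without control replicate 1 (adjusted p from 0.054 for Mcm10 to 0.139 for Pold2). With the 6 libraries whose labels agree, those of Orc6, Gmnn, Recql4, Pola1 and Pole2 remained. With groups from the description and genotype fields, the interaction of Pole2 was 0.67 and not called (adjusted p = 0.171), below 0.88 for Recql4, and those of Gmnn (0.0964), Mcm10 (0.502), Pold2 (0.822) and Rfc4 (0.156) were also lost. With the series term 21 members were called, 19 above 0 and 2 below, against 37.1% of all genes.

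Other gene lists around replication place the members. These lists were also written from textbook knowledge with earlier results of these data known. Of all genes tested, 24%, 22.3% and 21.8% were called higher in Myc_KO, Max_KO and double_KO, and 21.4%, 17.4% and 16.8% lower. The 20 other replisome and origin-firing genes went in both directions, with 3 rising and 3 falling in Myc_KO, 5 and 3 in Max_KO and 5 and 3 in double_KO. Rif1, which controls the timing of origin firing, rose by 1.01 in Myc_KO (adjusted p = 0.000773), 0.70 in Max_KO and 1.01 in double_KO, from 68.5 and 54.2 RPM in the controls to 93.6 to 133 RPM in the knock-outs. Rnaseh2a, the catalytic subunit of the enzyme that removes ribonucleotides from DNA, fell by 0.72, 0.65 and 0.58, from 56.5 and 52.9 RPM to 31.6 to 38.5 RPM (adjusted p = 0.00145, 0.00303 and 0.00531). Cinp, a Cdk2-interacting protein, fell by 0.80, 0.75 and 0.65, and its calls were lost without control replicate 1 in Max_KO (0.0652) and double_KO (0.108) and without double_KO replicate 2 (0.0662).

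Of 12 genes of chromatin assembly behind the fork, 4 fell in Myc_KO, 1 in Max_KO and none in double_KO, and 1 rose in every comparison. The shares called were 41.7%, 16.7% and 8.33%, against 45.4%, 39.7% and 38.6% of all genes tested. Supt16, a subunit of the histone chaperone FACT, was the 1 that rose, by 0.54, 0.70 and 0.68 (adjusted p = 0.00123, 0.00055 and 0.000641). Chaf1a, the large subunit of the chaperone CAF-1 that Pcna recruits, fell by 0.51 in Myc_KO (adjusted p = 0.00492) and by 0.31 in Max_KO (0.0428), the latter call being lost without either control or either Max_KO library (0.0513 to 0.196). Asf1b, a histone chaperone of dividing cells, fell by 0.41 in Myc_KO (adjusted p = 0.0184), a call lost without Myc_KO replicate 2 (0.0953), control replicate 1 (0.0905) or control replicate 2 (0.0784).

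Of 17 genes of the S-phase checkpoint and of licensing control, 7 rose and 1 fell in Myc_KO. In Max_KO 5 rose and in double_KO 6 rose, with none falling in these. The shares called were 47.1%, 29.4% and 35.3%, against 45.4%, 39.7% and 38.6% of all genes tested. Atr, the kinase that senses stalled forks, rose by 0.64, 0.63 and 0.69 (adjusted p = 0.0029, 0.00407 and 0.00276), from 41.3 and 49.8 RPM to 67.1 to 75.3 RPM. Cul4b and Ddb1 belong to the ubiquitin ligase family that destroys Cdt1. Cul4b rose by 0.53, 0.47 and 0.50, and Ddb1 by 0.36 in Max_KO and 0.42 in double_KO, while the Myc_KO call of Ddb1 (0.20, adjusted p = 0.046) was lost without any 1 of the 8 libraries (0.057 to 0.159).

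Among 17 E2F factors, pocket proteins and S-phase cyclins, 5 rose in Myc_KO and 8 in each of Max_KO and double_KO. Each comparison had 1 fall. The shares called were 35.3%, 52.9% and 52.9%, against 45.4%, 39.7% and 38.6% of all genes tested. The 3 genes with the lowest adjusted p were the pocket proteins, which bind E2F factors and repress their targets. Rb1 stood at 46.6 and 50.5 RPM in the controls, 99.1 and 99.5 in Myc_KO, 87.0 and 87.8 in Max_KO and 87.3 and 83.7 in double_KO. Rb1 rose by 1.03, 0.85 and 0.82 (adjusted p = 7.68e-05, 0.000279 and 0.00032), Rbl1 by 1.18, 0.99 and 1.06, and Rbl2 by 0.65, 0.51 and 0.52, with all knock-out libraries above both controls. These calls held without each library in turn.

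Of 10 genes of deoxynucleotide supply, 3 were called higher and 4 lower in Myc_KO, 4 and 3 in Max_KO and 5 and 3 in double_KO. Tk1, the thymidine kinase of S phase, fell by 0.95, 0.55 and 0.65 (adjusted p = 8.89e-05, 0.00146 and 0.00071), from 183 and 184 RPM in the controls to 91.8 to 129 RPM. Dut, which breaks down dUTP, fell by 0.61, 0.60 and 0.38, the last call being lost without control replicate 1 (0.0915) or double_KO replicate 1 (0.0518). Rrm2b, the ribonucleotide reductase subunit used outside S phase and a known p53 target, rose by 1.71, 1.46 and 1.37 (adjusted p = 0.000196, 0.000593 and 0.000775), from 8.45 and 10.3 RPM to 22.6 to 32.8 RPM.

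The 10 proliferation markers outside replication, mostly genes of mitosis and its entry, moved in 1 direction where they were called: 7 fell in Myc_KO and 6 in each of Max_KO and double_KO, and none rose. Of all genes tested, 21.4%, 17.4% and 16.8% were called lower. The markers' median log2 changes were -0.59, -0.38 and -0.32, and no test between the lists was made. Not all of them fell. Mki67 had means of 986 RPM in the controls and 1045, 999.7 and 1019 in Myc_KO, Max_KO and double_KO. Ccnb2 had means of 95.4 RPM in the controls and 88.6, 96.1 and 95.4 in the same order. Birc5 (survivin), of the chromosomal passenger complex, fell by 0.94, 0.59 and 0.72 (adjusted p = 0.000373, 0.00415 and 0.00179). Aurkb, the kinase of that complex, fell by 0.59, 0.32 and 0.30, with calls lost without control replicate 1 (0.0884) or Max_KO replicate 2 (0.0626) in Max_KO and without control replicate 1 (0.112), control replicate 2 (0.0523) or double_KO replicate 1 (0.0971) in double_KO. Plk1, the mitotic polo kinase, fell by 0.59, 0.49 and 0.37, the last call being lost without control replicate 1 (0.0666) or double_KO replicate 1 (0.0593). Without control replicate 1, 6 of the 10 markers fell in Myc_KO and 3 in each of the other groups, and with each library scaled to the same total 6, 5 and 4 fell.

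**Figure D5:**
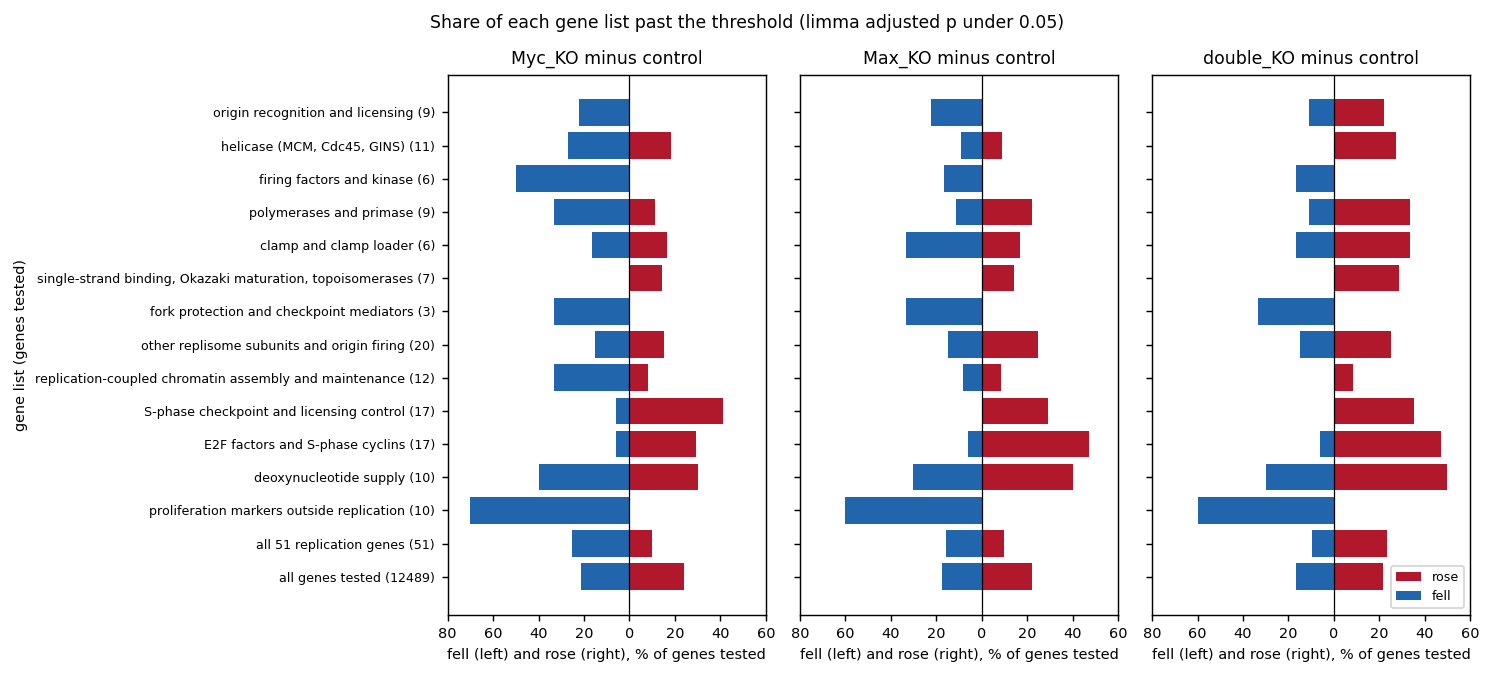
Share of each gene list, in % of its tested genes, that rose (right) or fell (left) against control at a limma adjusted p under 0.05, for the 3 knock-out groups. The list of 10 proliferation markers has falls and no rises, the 51 replication genes have both, and the last row gives all 12489 genes tested.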

How the data were processed

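RNA of 8 libraries was sequenced, and the authors deposited 1 table of log2 values per gene, from -5.23 to 14.51. The values themselves show the formula, log2 of (estimated reads + 0.5) divided by an effective library size and scaled to RPM, with estimated reads in multiples of 0.01 read. CASAVA 1.8, cutadapt and RSEM 1.2.3 with the build GRCm38 are named in the submitters' processing notes. Their order, the annotation, the strand setting and the source of the effective size are not given in the labels or the table. RSEM divides reads between similar genes by estimate, and without a stated strand setting, reads of overlapping genes may be shared.

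The design allowed for linear values to be put on a log2(value + 1) scale, but the deposited values were already log2 and were used unchanged. No count test was made, since the estimated reads are not whole. RPM levels are the values taken back to the linear scale. Gene symbols were taken from GENCODE vM21, an annotation of GRCm38 (15622 genes with a symbol, 59 without). Groups follow the titles. All 8 libraries were fitted in 1 model of 4 groups with limma 3.58.1 in R 4.3.3 (eBayes, mean-variance trend on, 4 degrees of freedom left over and 4.23 from the prior). The two-sided p was adjusted by Benjamini-Hochberg over 12489 genes with a threshold of 0.05. The self-test on simulated data ran in the same script. The rest used Python 3.11.15 with matplotlib 3.10.9, scipy 1.17.1, numpy 2.4.6 and pandas 2.3.3.

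Values are given in every library for the called members lowest in adjusted p, up to 3, and the member with the largest change in each role, plus up to 5 members with the lowest adjusted p in each comparison between knock-outs and in the interaction, and for up to 3 called genes of each other list. Orc3, Mcm5, Gins4, Prim1, Prim2, Pold2 and Pcna are named in addition, so that each call is accounted for. The members, lists and tests were chosen with earlier results of these data known. Alternatives were other filters, pseudocounts, scalings, groups from the descriptions, replicate blocks, a term for the number series of the titles and leaving out each library. The sum of the B-cell markers is not reported here.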

Additional observations from a re-analysis of the deposited data

Results flagged for a closer look

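The change in double_KO differed from the sum of the changes in Myc_KO and Max_KO for 10 of the 51 replication genes, by limma's test of the interaction (adjusted p under 0.05), against 27.3% of all genes tested. The interaction was 0.63 for Orc6 of the origin recognition complex, 0.60 for the licensing inhibitor Gmnn, 0.72 for the GINS subunit Gins1 and 0.54 for the firing factor Mcm10. It was 1.02 for the helicase Recql4, 1.26 for the polymerase epsilon subunit Pole2, 0.45 for the polymerase delta subunit Pold2, 0.52 for the loader subunit Rfc4 and 0.57 for the fork gene Tipin, all on the log2 scale. Pola1, the catalytic subunit of polymerase alpha, was the 1 below 0, at -0.69.

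Each of these values takes in the 2 control libraries and the 2 libraries whose labels disagree. Without control replicate 1, the calls of Orc6 (adjusted p = 0.0557), Gmnn (0.075), Gins1 (0.0761), Mcm10 (0.054), Pold2 (0.139), Rfc4 (0.113) and Tipin (0.092) were lost. Further libraries ended a call when left out: control replicate 2 for Gins1 (0.0908), Mcm10 (0.06) and Rfc4 (0.0573), Myc_KO replicate 1 for Gins1 (0.0658), Pold2 (0.0938) and Tipin (0.0547), and Myc_KO replicate 2 for Rfc4 (0.0771). The same was seen without Max_KO replicate 1 for Pold2 (0.055), Rfc4 (0.0528) and Tipin (0.0551), and without Max_KO replicate 2 for Gins1 (0.0733), Mcm10 (0.0516), Pold2 (0.0997) and Rfc4 (0.0725). It was also seen without double_KO replicate 1 for Pold2 (0.0806) and Rfc4 (0.079), and without double_KO replicate 2 for Gmnn (0.0553), Gins1 (0.0867), Pold2 (0.0923), Rfc4 (0.0588) and Tipin (0.0707). With groups from the description and genotype fields, 5 of the 10 were still called (Orc6, Gins1, Recql4, Pola1 and Tipin), and with the replicate block of the titles' groups 1 member was called above 0 and 1 below.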

How the results depend on the processing

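Counts of called members moved with the setting, and no value of a named gene that was called took the other sign and stayed called. Of 3873 values recomputed for named genes, 3337 stayed on their side of the threshold, 494 were no longer called, 42 became called and 0 reversed, while 11 changed sign without being called. Leaving out 1 library gave 8 to 20 called members in Myc_KO against 18 with all libraries, 3 to 15 against 13 in Max_KO, 6 to 18 against 17 in double_KO, 0 to 1 against 1 between Max_KO and Myc_KO, and 3 to 9 against 10 in the interaction. Between double_KO and each single knock-out it gave 0.

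With the 6 libraries whose labels agree, 10 members were called in Myc_KO, 6 in double_KO, 0 between Max_KO and Myc_KO and 6 in the interaction. At an adjusted p under 0.01 the counts were 8 in Myc_KO, 6 in Max_KO, 6 in double_KO, 0 between Max_KO and Myc_KO and 3 in the interaction, and with at least a 1.5-fold change as well as 0.05 they were 3, 3, 2, 0 and 6. The same total for each library gave 20 in Max_KO and 0 between Max_KO and Myc_KO. A term for the number series of the titles (30s or 40s) gave 24 in Max_KO, 3 between double_KO and Myc_KO and 21 in the interaction. Quantile normalization gave 19 in the interaction, and no mean-variance trend gave 11 in double_KO. Mcm3 between Max_KO and Myc_KO was also lost, leaving 0, with median-of-ratios scaling, no filter, no trend, quantile normalization, only the groups compared, and groups from the descriptions. The cause of these shifts was not tested. Fits that leave libraries out also have fewer samples, and the share of all genes called in them is not given here.

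The description numbers could be checked for pairing in 1 pair of groups: the deviations of the control and Max_KO libraries numbered 1 had a correlation of -0.105. The libraries of 1 title series deviated together in the 3 knock-out groups, with correlations across genes from 0.315 to 0.37. With the replicate block and groups from the titles, 11 members were called in Myc_KO, 0 between Max_KO and Myc_KO and 2 in the interaction, and with groups from the descriptions 0 between Max_KO and Myc_KO. With the Max_KO numbers of the replicate block crossed, chosen after seeing the data, 10 were called in double_KO, 0 between Max_KO and Myc_KO and 4 in the interaction.

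With 2 libraries per group and 2 disputed labels, a change that missed the threshold is not shown to be absent. All members had at least 233 estimated reads in every library. The parts of counting error and of spread between libraries were not separated.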
